A study of Mus musculus with 745 samples.

Results

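Pglyrp1, Ttyh2, Cpe, Rnase4, Pltp, Fmo2 and Ndnf are 7 of the 20607 genes in the count table, grouped because earlier results from the same cells showed them low in arterial endothelium and because none of them encodes a classical transporter or transport receptor. The contrast of arterial-like with other endothelial cells therefore chose them, and their values in it are a description with no test. All 7 genes had their lowest mean level in arterial-like cells, but not all were lost there. Pglyrp1 still had a count in 44.1% to 67.3% of the arterial-like cells of a set. Pltp was still present in nearly every arterial-like cell at about 52.2% of its capillary-like level. Cpe in 1 set of arterial-like cells reached the range of the other classes, with 1 cell holding 73.95% of its counts there.

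The series concerns the passage of blood proteins into the brain and its change with age. The 745 samples were single endothelial cells from the brains of mice aged 3 months, all labelled young, freed with a neural dissociation kit and sorted by FACS. Their titles gave 3 sets, Young1, Young2 and AY_Y3, and whether each stands for a mouse, a pool or a plate is not stated. No treatment, genotype or second age was compared, so the groups below are classes of vessel segment rebuilt from marker genes within each set.

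Brain vessels are zoned: arterial endothelium lines the inflow, capillary endothelium makes up most of the blood-brain barrier surface, and venous endothelium drains the bed and is a main site of leukocyte entry. Cxcl12 (a chemokine) and Rgcc (a cell cycle regulator) mark capillary cells, and Nr2f2 (the COUP-TFII nuclear receptor that specifies veins) and Il1r1 (the interleukin-1 receptor) mark venous cells. Of the genes described here, Pglyrp1 encodes a secreted peptidoglycan recognition protein that binds bacterial cell walls, Rnase4 a small secreted ribonuclease of the angiogenin family, and Ndnf a secreted neurotrophic and angiogenic factor. Pltp encodes phospholipid transfer protein, which moves phospholipid between lipoproteins. Cpe encodes carboxypeptidase E, which trims prohormones and neuropeptide precursors, Fmo2 a flavin-containing monooxygenase that oxidises xenobiotics, and Ttyh2 a tweety-family membrane protein.

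Promoter sequence is shown for Fmo2 and Rnase4, since these followed the venous markers most closely of the genes for which a window was found. Windows of 300 bases at the annotated starts (RefSeq, GRCm38.p6) were found for 5 of the 7 genes, Pglyrp1, Ttyh2, Rnase4, Pltp and Fmo2, and not for Cpe and Ndnf. They are written 5′ to 3′ on the strand of the gene. The first Rnase4 window is also that of Ang, the angiogenin gene. Capitals mark AGGTCA, a half-site of nuclear receptors such as Nr2f2, in Fmo2 and the complement of TGGGAA, a core of RBPJ sites in Notch targets, in the second Rnase4 window.
Fmo2, chr1:162898444-162898743, minus strand: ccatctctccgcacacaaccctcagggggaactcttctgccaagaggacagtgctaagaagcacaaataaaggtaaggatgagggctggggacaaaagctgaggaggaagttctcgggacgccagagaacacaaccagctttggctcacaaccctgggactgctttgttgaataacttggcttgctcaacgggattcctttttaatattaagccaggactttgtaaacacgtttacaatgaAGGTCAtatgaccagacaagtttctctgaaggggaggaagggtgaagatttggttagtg
Rnase4 and Ang, chr14:51090827-51091126, plus strand: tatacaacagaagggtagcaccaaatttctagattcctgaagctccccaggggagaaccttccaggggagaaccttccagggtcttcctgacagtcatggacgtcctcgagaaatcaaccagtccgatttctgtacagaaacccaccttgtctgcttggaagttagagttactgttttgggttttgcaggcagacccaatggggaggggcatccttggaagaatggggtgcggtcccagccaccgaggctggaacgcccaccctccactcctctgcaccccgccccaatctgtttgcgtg
Rnase4, chr14:51095750-51096049, plus strand: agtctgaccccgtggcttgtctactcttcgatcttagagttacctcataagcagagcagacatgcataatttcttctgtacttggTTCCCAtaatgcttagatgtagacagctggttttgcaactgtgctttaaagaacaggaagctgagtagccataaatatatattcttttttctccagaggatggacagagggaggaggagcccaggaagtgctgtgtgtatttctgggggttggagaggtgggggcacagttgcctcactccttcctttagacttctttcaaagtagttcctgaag
Both strands were searched for these letters and for ATCAAAG (TCF and LEF) and ATTGTT (SOX). AGGTCA was found in 16.3% of all 32817 windows of the same length and TGGGAA in 25.6%, against 3.73% for ATCAAAG and 10.7% for ATTGTT. The windows of Pglyrp1, Ttyh2 and Pltp and the second Fmo2 window held none of the 4. A match describes the letters in a window and nothing more.

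All 745 cells had at least 500 genes and 50000 counts, with medians of 757949 counts in Young1, 713031 in Young2 and 411397 in AY_Y3. One cluster of 44 cells with pericyte markers was left out, and the other 701 cells were grouped by segment markers only, none of which is among the 7 genes. Arterial-like cells made up 20.1% of them (34 in Young1, 55 in Young2 and 52 in AY_Y3), venous-like cells 10.8% (24, 24 and 28 in the same order of sets) and capillary-like cells 31.4% (69, 73 and 78). The remaining 37.7% stayed unnamed. The 16 arterial markers summed to between 5953 and 9377 CPM (summed counts of a set and class, scaled to a common library size) in arterial-like cells, against 485 to 649 CPM in capillary-like cells, and the 16 venous markers to between 6249 and 10534 CPM in venous-like cells, against 1808 to 2028 CPM in capillary-like cells. Venous-like cells had the most genes with a count, a median of 3008.5 per cell, against 2332 in the arterial-like class, 2098.5 in the capillary-like class and 1913.5 in unnamed cells. Unnamed cells averaged 3338 CPM of Cxcl12 and 602 CPM of Rgcc, against 3065 and 535 CPM in capillary-like cells. Their Nr2f2 and Il1r1 averaged 13.5 and 2.2 CPM, against 42.7 and 46.7 CPM. The 9 capillary markers summed to 16090 to 17904 CPM in unnamed cells, against 18297 to 20690 CPM in capillary-like cells. Unnamed cells were on neither side of the test of venous-like over capillary-like cells.

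Markers of other cell types were unequal between the classes. The 10 pericyte markers summed to 120.5 to 278 CPM in arterial-like cells, 83.1 to 196.3 CPM in venous-like and 368 to 682 CPM in capillary-like cells. Kcnj8, Atp13a5 and Abcc9 were at 0 in arterial-like cells, and Kcnj8, Pdgfrb, Abcc9, Cspg4 and Ndufa4l2 in venous-like cells. The 8 smooth muscle markers, all with a count in arterial-like and capillary-like cells, summed to 184.05 to 696 CPM in arterial-like cells, against 24.7 to 81.7 CPM in capillary-like ones. The 9 neuron markers summed to 376 to 507 CPM in arterial-like cells, against 4.2 to 16.6 CPM in capillary-like ones. Of these, Tubb3, Nefm and Slc17a7 were at 0 in arterial-like cells and Gad1 in capillary-like cells. The 10 astrocyte markers summed to 115.7 to 308 CPM in arterial-like cells, 9.4 to 98.3 CPM in venous-like and 184.9 to 377 CPM in capillary-like cells. The part these transcripts have in the levels below was not tested, except that the levels were also taken without the 72 cells highest in mural or astrocyte markers, which moved arterial-like Cpe to 13.1 CPM, against 53.6 CPM with them, and no class mean by more than its SD over sets, which for Cpe was above the mean.

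The 7 genes fell into a broad pair, Pglyrp1 and Pltp, found in most endothelial cells of every class, and 5 sparser genes that most arterial-like cells lacked. Pglyrp1 had 246.5 CPM in Young1, 414 CPM in Young2 and 228.004 CPM in AY_Y3 in arterial-like cells. In the same order of sets it had 1781, 1762 and 2038 CPM in capillary-like cells. The arterial-like sets were all below the capillary-like ones, with means of 296 ± 102.3 CPM in arterial-like cells, against 1860.3 ± 154.4 CPM in capillary-like ones (SD, n = 3 sets each), a 6.28-fold lower level. Pglyrp1 was not absent from arterial-like cells: 44.1%, 52.7% and 67.3% of them had a count, against 98.6%, 100% and 97.4% of capillary-like cells.

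Pltp, the most abundant of the 7, had 2388, 2259 and 3015 CPM in arterial-like cells of Young1, Young2 and AY_Y3, against 4975, 4385 and 5332 CPM in capillary-like cells. No arterial-like set reached a capillary-like one, and the level was 1.92-fold lower. The share of cells with a count hardly moved, from 98.1% to 100% in arterial-like sets and from 98.7% to 100% in capillary-like sets, so Pltp was lower per cell and not missing from cells. Median levels over the cells with a count were 1909, 1974 and 2537 CPM in arterial-like cells, against 4769, 4255 and 5309.9 CPM in capillary-like cells.

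Ttyh2 had no count in the arterial-like cells of Young1 and 16.6 and 5.2 CPM in those of Young2 and AY_Y3, against 227.1, 298 and 289 CPM in capillary-like cells. A count was found in 0%, 21.8% and 3.85% of arterial-like cells, against 60.9%, 71.2% and 70.5% of capillary-like cells. Ttyh2 was thus intermediate between the broad pair and the rarest genes outside arterial-like cells, and near the bottom of the scale within them. Its mean level was 37.3-fold lower in arterial-like cells.

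Fmo2 was the gene with no count in any arterial-like cell, which allows a share of up to 2.13%. Capillary-like cells had 34.2, 186.9 and 242.2 CPM in Young1, Young2 and AY_Y3, and a count in 14.5%, 24.7% and 34.6% of cells. Fmo2 counts were also the most concentrated, with the highest 10% of endothelial cells holding 85.7% to 99.1% of its summed CPM in a set, against 21% to 22.9% for Pltp.

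Ndnf was found in 1 arterial-like cell of each set. Its level was 0.45, 10.9 and 4.6 CPM in arterial-like cells of Young1, Young2 and AY_Y3, against 324, 177.2 and 304 CPM in capillary-like cells, 50.5-fold lower by the means. Rnase4 had 6.9, 23.3 and 28.7 CPM in arterial-like cells, against 254.5, 378 and 279 CPM in capillary-like cells, and was 15.5-fold lower. A count of Rnase4 was found in 2.94%, 1.82% and 3.85% of arterial-like cells, against 29%, 43.8% and 35.9% of capillary-like cells. In the arterial-like class 1 cell held 100% of the Ndnf counts of each set. For Rnase4 the highest cell held 100%, 100% and 79% of them. The arterial-like levels of both genes, low in every set, thus rested on few cells.

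Cpe had an overlap that rested on few cells. It had 13.4 and 7.6 CPM in arterial-like cells of Young1 and Young2 but 139.9 CPM in those of AY_Y3, against 102.7, 315 and 242.5 CPM in capillary-like cells. The AY_Y3 arterial-like level lay above the Young1 capillary-like level, so the ranges overlapped, and 1 cell held 2606 of the 3524 counts in that set. Without the cells highest in mural or astrocyte markers the highest arterial-like set had 39.02 CPM, against 116.8 CPM in the lowest capillary-like set, and the overlap ended. The share of cells with a count did not overlap: 5.88%, 9.09% and 9.62% of arterial-like cells, against 23.2%, 42.5% and 46.2% of capillary-like cells. Counted over the list, 6 of the 7 genes had a lower CPM in every arterial-like set than in every capillary-like set, a pattern that 9.73% of the 9267 tested genes also had; as the genes were chosen on this contrast, nothing is read from the count.

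**Figure D1:**
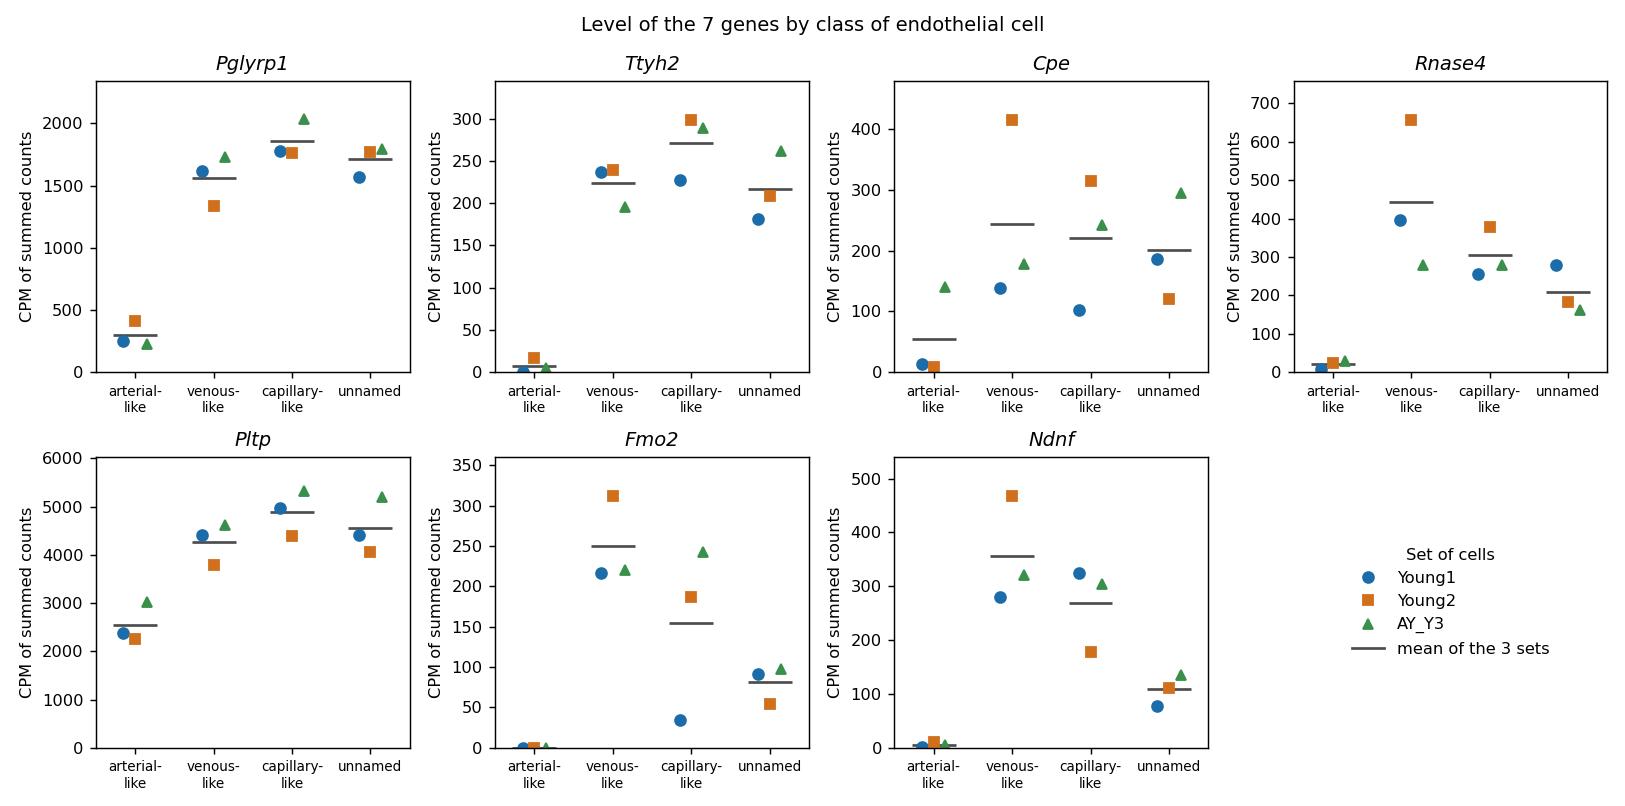
CPM of the summed counts of each gene (linear axis from 0) in arterial-like, venous-like, capillary-like and unnamed endothelial cells; each point is 1 set and the bar is the mean of the 3 sets. Arterial-like points are the lowest in every panel except for Cpe, where the AY_Y3 point at 139.9 CPM, mostly from 1 cell, lies among those of the other classes.

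**Figure D2:**
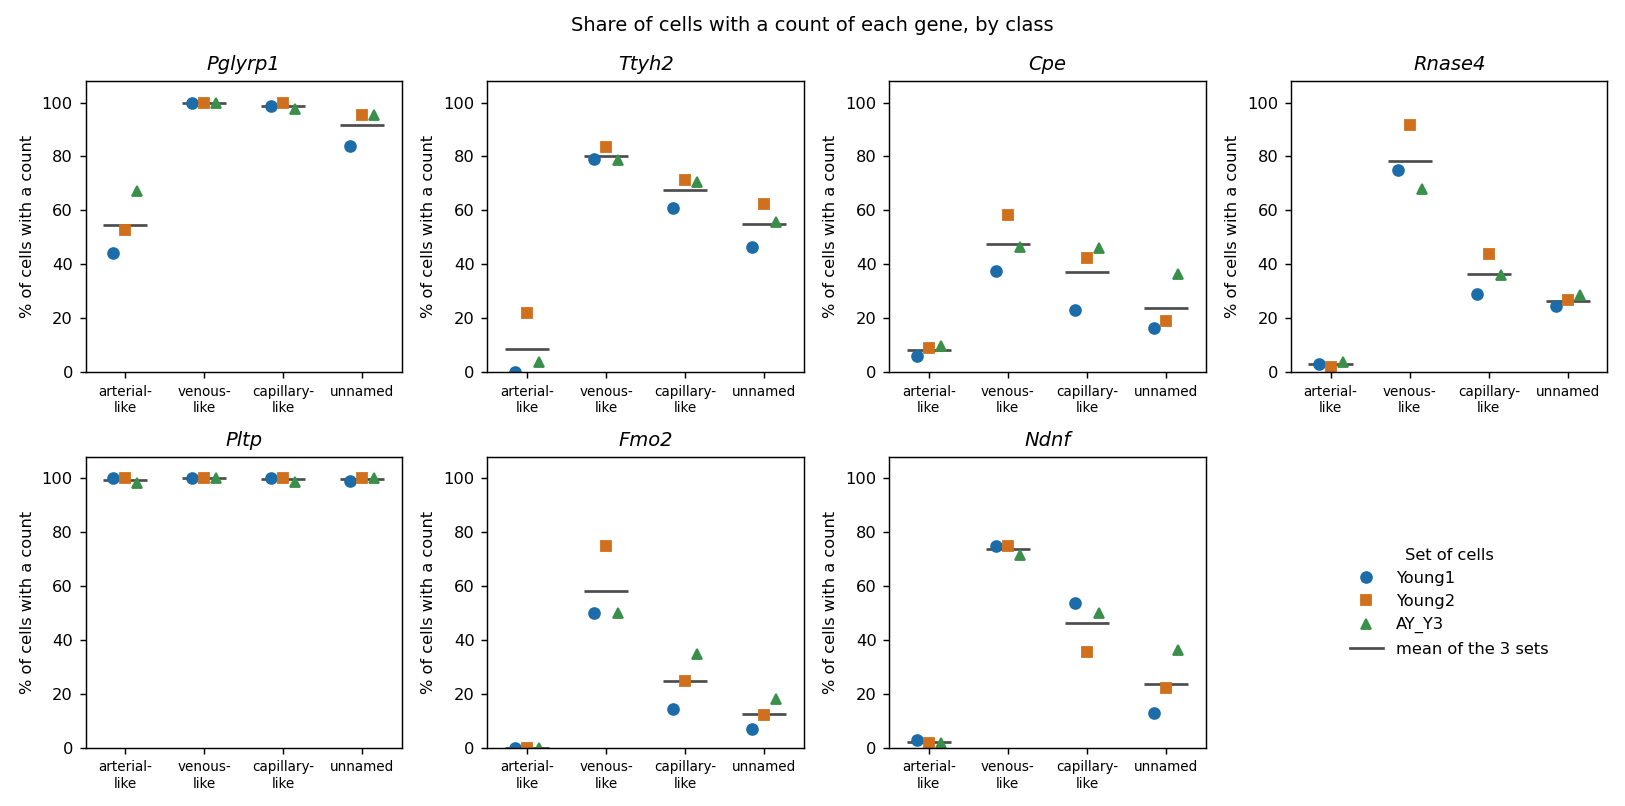
Percentage of cells with at least 1 count of each gene, by class, with 1 point per set and a bar at the mean of the 3 sets. Pltp stays near 100% in every class, Pglyrp1 is lowest in arterial-like cells, and Rnase4, Fmo2 and Ndnf are highest in venous-like cells.

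Ordered by mean CPM, all 7 genes were lowest in arterial-like cells. Above that, Pglyrp1 and Pltp ran venous-like, unnamed, capillary-like in rising order, and Ttyh2 unnamed, venous-like, capillary-like, while Cpe, Rnase4, Fmo2 and Ndnf ran unnamed, capillary-like, venous-like. Neighbouring classes above the arterial-like one overlapped between sets for every gene except Ndnf. For that gene unnamed cells had 77.3, 111.8 and 135.75 CPM and capillary-like cells 324, 177.2 and 304 CPM, with no overlap.

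The arterial-like cells were not uniform. At a finer clustering (Leiden resolution 2 in place of 1) they split into a cluster of 69 cells with 14 of 16 arterial markers raised and 1 of 71 cells with 11 raised, and another cluster of 53 cells with 3 raised was also called arterial-like, 52 of its cells having been unnamed before. Pglyrp1 was at 113.2 ± 56.9 CPM in the first of these, 446 ± 77.4 CPM in the second and 846 ± 150.1 CPM in the last (SD, n = 3 sets). Pltp ran the same way, at 1892 ± 479 CPM, 3130 ± 479 CPM and 3588 ± 233.3 CPM. Fewer arterial markers thus went with more of the broad pair. With edgeR at that resolution, 10 genes (0.111% of those tested) were lower and 0 higher in the cluster with most arterial markers than in the other arterial-like cells, and Pglyrp1 was 1 of them. The number was 0 without Young1 and 0 without AY_Y3. Pglyrp1 also missed the threshold without the cells highest in mural markers (edgeR adjusted p = 0.0632) and without the cluster of 53 cells (edgeR adjusted p = 0.123). As this comparison runs along the axis on which the 7 genes were chosen, it is given as a description.

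Ttyh2, Fmo2 and Ndnf were at or near 0 in both larger clusters. They averaged 10.4, 0 and 0.29 CPM in the cluster of 69 cells and 5.8, 0 and 8.1 CPM in that of 71 cells. In the cluster of 53 cells they averaged 77.5, 8.3 and 34.9 CPM, so that with this cluster counted as arterial-like Fmo2 was no longer at 0 there and averaged 1.91 CPM. At this resolution most arterial-like counts of these genes thus lay in the cluster of 53 cells. As 52 of its cells were unnamed before, most of those counts came with the change of class.

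Within the arterial-like class, cells with a count of Pglyrp1 differed from those without in the segment markers too. Their median summed arterial marker level was 4849, 4040.04 and 7191 CPM in Young1, Young2 and AY_Y3, against 6331, 6414 and 9755 CPM in arterial-like cells with none. Their median level of Cxcl12 and Rgcc together was 1471, 1421 and 983 CPM, against 243.7, 475 and 558 CPM. In every set, then, Pglyrp1 was found in the arterial-like cells with lower arterial and higher capillary marker levels.

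Whether the genes lean towards capillary or venous cells was open to a test, since that contrast did not choose them. Counts of the cells of a class were added up within each set and tested with edgeR's quasi-likelihood test with the set as a block and Benjamini-Hochberg adjustment over 9267 genes. Between venous-like and capillary-like cells 1 gene, the transglutaminase Tgm2, passed at 0.05 (0.0108% of genes tested), and 0 of the 7 genes did. At an unadjusted p under 0.05, 6.46% of all tested genes and 1 of the 7, Pltp, were counted. The arterial-like sums were in the same fit. The spread was thus estimated over arterial-like, capillary-like and venous-like sums together, with the low arterial-like counts of the 7 genes among them. The SE and p-values therefore do not measure the spread between sets in the compared classes alone. As nothing states what separates the sets, that spread may be technical.

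Fmo2 had the largest fitted difference of the 7. It had 216.6, 312 and 220.4 CPM in venous-like cells of Young1, Young2 and AY_Y3, against 34.2, 186.9 and 242.2 CPM in capillary-like cells, a log2 fold change of 1.05 ± 0.60 (SE, edgeR adjusted p = 0.907). The levels overlapped because AY_Y3 had slightly more in its capillary-like than in its venous-like cells. Rnase4 had 396, 657 and 279 CPM in venous-like cells, against 254.5, 378 and 279 CPM in capillary-like cells, a log2 fold change of 0.53 ± 0.43 (SE, edgeR adjusted p = 0.941). It was higher in the venous-like cells of Young1 and Young2 and level in AY_Y3.

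Ndnf had 281, 468 and 321 CPM in venous-like cells, against 324, 177.2 and 304 CPM in capillary-like cells. Its log2 fold change was 0.23 ± 0.77 (SE, edgeR adjusted p = 0.989), and without Young2 it turned to −0.09. Cpe had 138.8, 415 and 177.9 CPM in venous-like cells, against 102.7, 315 and 242.5 CPM in capillary-like cells, with a log2 fold change of 0.27 ± 0.85 (SE, edgeR adjusted p = 0.987). The capillary-like level of Ndnf depended on the cluster: it averaged 127.6 ± 89.1 CPM, 389 ± 137.1 CPM and 281 ± 219.8 CPM in its 3 clusters (SD, n = 3 sets), the second of which had 5 venous and 4 capillary markers raised. At Leiden resolution 0.5 Ndnf averaged 375 CPM in venous-like cells, against 140.7 CPM in capillary-like cells, a log2 fold change of 1.27 ± 0.79 (SE, edgeR adjusted p = 0.942).

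Pglyrp1 had 1616, 1337 and 1729 CPM in venous-like cells, against 1781, 1762 and 2038 CPM in capillary-like cells. The venous-like sets all lay below the capillary-like ones, which 7.46% of the tested genes also did, and the log2 fold change was −0.25 ± 0.23 (SE, edgeR adjusted p = 0.941). Pltp had 4417, 3799 and 4610.4 CPM in venous-like cells, against 4975, 4385 and 5332 CPM in capillary-like cells, lower in 3 of 3 sets by a log2 fold change of −0.20 ± 0.08 (SE, edgeR adjusted p = 0.761). Ttyh2 had 236.9, 239.4 and 195.3 CPM in venous-like cells, against 227.1, 298 and 289 CPM in capillary-like cells, a log2 fold change of −0.21 ± 1.14 (SE, edgeR adjusted p = 0.996). The log2 ratio of these Ttyh2 levels within a set was 0.06, −0.32 and −0.57, a narrower spread than that SE. None of the 7 had a venous-like CPM above the capillary-like CPM in every pair of sets, which 6.74% of the tested genes had.

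The share of cells with a count separated the classes more than the CPM did. Rnase4 was found in 75%, 91.7% and 67.9% of venous-like cells of Young1, Young2 and AY_Y3, against 29%, 43.8% and 35.9% of capillary-like cells. Fmo2 was found in 50%, 75% and 50% of venous-like cells, against 14.5%, 24.7% and 34.6% of capillary-like cells, and Ndnf in 75%, 75% and 71.4%, against 53.6%, 35.6% and 50%. Ttyh2 was found in 79.2%, 83.3% and 78.6% of venous-like cells, against 60.9%, 71.2% and 70.5% of capillary-like cells. In these 4 genes the venous-like sets lay above the capillary-like sets throughout.

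The same 4 of 7 did not overlap when each cell was thinned to 50000 counts, but 31.9% of all tested genes showed that pattern, and venous-like cells had more genes with a count in general. The thinned share was higher in venous-like than in capillary-like cells by 38.4 percentage points for Rnase4, 29.7 for Fmo2 and 29.3 for Ndnf, against a median of 5.82 points over all tested genes. Ttyh2 (13.1 points) and Cpe (10.5 points) were nearer that median, and Pglyrp1 (1.82 points) and Pltp (0.427 points) were already found in nearly all cells of both classes. Venous-like cells with Rnase4 did not carry more of it each: their median was 397, 534 and 427 CPM, against 565, 807 and 510.01 CPM in capillary-like cells with a count.

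A second view used the 4 marker genes alone. Endothelial cells outside the arterial-like class were ranked within each set by Nr2f2 and Il1r1 against Cxcl12 and Rgcc and divided into 3 equal parts. Ndnf had 287, 363 and 381 CPM in the venous-ranked cells of Young1, Young2 and AY_Y3, against 59.8, 116.3 and 99.96 CPM in the capillary-ranked cells. Rnase4 had 417, 648 and 257.3 CPM in the venous-ranked cells, against 205.3, 178.7 and 218.7 CPM in the capillary-ranked cells, and Fmo2 had 106.3, 366 and 231.05 CPM, against 23.9, 30.6 and 115.7 CPM. The venous-ranked cells were above the capillary-ranked cells in every set for these 3 genes. Rnase4 and Ndnf, 2 of the 7 genes, had no overlap between any sets, as 8.11% of all tested genes had, and Fmo2 overlapped. Ttyh2 had 198.7, 282 and 357 CPM in the venous-ranked cells, against 235.5, 262.3 and 206.2 CPM in the capillary-ranked cells. Cpe had 101.3, 299 and 291 CPM in the venous-ranked cells, against 111.5, 264.9 and 214.5 CPM in the capillary-ranked cells. Both had a higher mean in the venous-ranked cells, but not in Young1.

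The broad pair was flat by the same ranking. Pglyrp1 had 1769.9, 1660.5 and 1703 CPM in the venous-ranked cells, against 1649, 1879 and 1927 CPM in the capillary-ranked cells. Pltp had 4613, 4425 and 4441 CPM in the venous-ranked cells, against 4829, 3955 and 5654 CPM in the capillary-ranked cells. Neither gene had all its sets on the same side. Fitted with edgeR over these parts, the log2 fold change was 2.15 ± 0.59 for Fmo2 (SE, adjusted p = 0.710), 1.92 ± 0.67 for Ndnf (SE, adjusted p = 0.826) and 0.999 ± 0.494 for Rnase4 (SE, adjusted p = 0.954), and none of the 7 passed at 0.05.

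**Figure D3:**
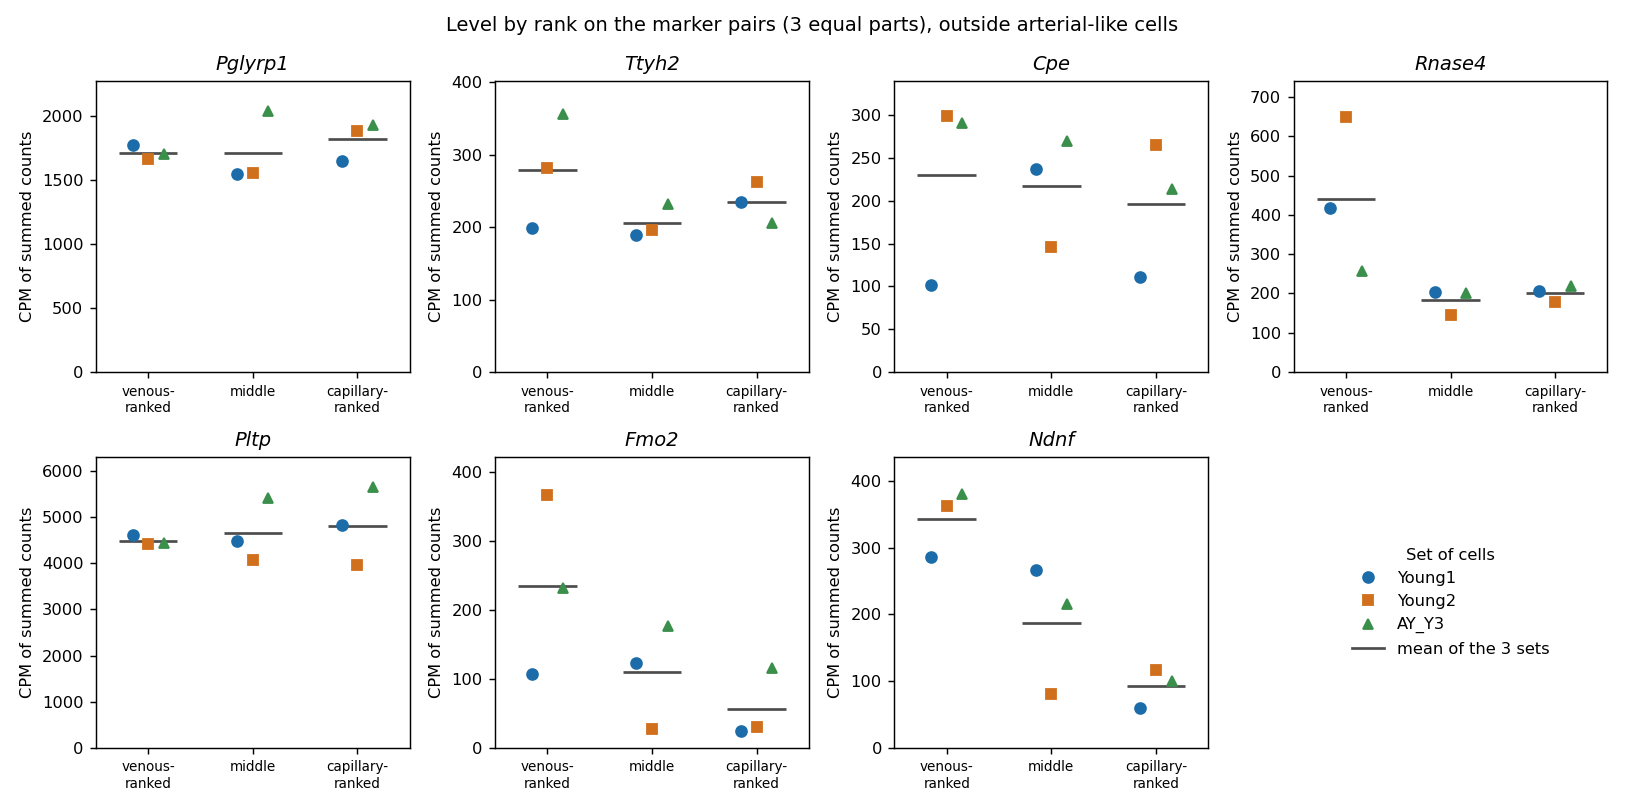
CPM of the summed counts of each gene (linear axis from 0) in 3 equal parts of the endothelial cells outside the arterial-like class, ranked by venous against capillary marker pair; 1 point per set, bar at the mean. All but Pglyrp1 and Pltp have their highest mean in the venous-ranked cells, where Ndnf has 287 to 381 CPM, while Pglyrp1 and Pltp are level across the parts.

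Correlation over all endothelial cells of a set gave the same grouping. Pearson's r of log2(CPM + 1) was taken within each set over its endothelial cells, which share the set's source and differ in depth, and it is given as a description. Fmo2 had r = 0.26, 0.54 and 0.23 with Nr2f2 in Young1, Young2 and AY_Y3, Rnase4 had r = 0.33, 0.42 and 0.23, and Ndnf had r = 0.31, 0.32 and 0.28. With Il1r1 the mean r over sets was 0.31 for Fmo2, 0.33 for Rnase4 and 0.33 for Ndnf. All 3 were negative with Cxcl12 in every set, between −0.26 and −0.06. Rgcc did not follow Cxcl12 throughout. In AY_Y3 the mean r over these capillary markers was 0.03 for Ndnf and 0.01 for Rnase4, so r with Rgcc was positive there. Within a class, mean r with the venous pair minus that with the capillary pair varied (Young1, Young2, AY_Y3 in order). In unnamed cells this was −0.05, 0.17 and −0.06 for Fmo2, −0.08, 0.03 and 0.23 for Rnase4 and −0.07, 0.06 and −0.10 for Ndnf. Capillary-like cells had −0.15, 0.43 and 0.31 for Fmo2, 0.54, 0.43 and 0.06 for Rnase4 and 0.34, 0.55 and 0.20 for Ndnf. Venous-like cells had 0.07, 0.37 and 0.001 for Fmo2, 0.19, −0.06 and 0.25 for Rnase4 and 0.23, −0.60 and 0.36 for Ndnf.

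Pltp leaned to the capillary markers over all endothelial cells, and Pglyrp1 was positive with both kinds. The mean r of Pglyrp1 with the venous pair was 0.18, 0.15 and 0.19 in Young1, Young2 and AY_Y3, against 0.19, 0.27 and 0.21 with the capillary pair. That of Pltp was 0.03, 0.11 and 0.08 with the venous pair, against 0.18, 0.15 and 0.18 with the capillary pair. Outside the arterial-like cells the venous minus the capillary value was 0.14, −0.07 and 0.06 for Pglyrp1, towards the venous pair in 2 of 3 sets. For Pltp it was −0.10, 0.01 and −0.17. Over all endothelial cells Ttyh2 was positive with both kinds of marker, with a mean r of 0.22 with Rgcc and 0.22 with Il1r1. These values include the arterial-like cells, in which it was chosen as low. Without them Ttyh2 had 0.09, 0.03 and −0.01 with the capillary pair, against 0.09, 0.21 and 0.15 with the venous pair. Cpe had a mean r of 0.19 with Nr2f2 and −0.03 with Cxcl12 over all endothelial cells.

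**Figure D4:**
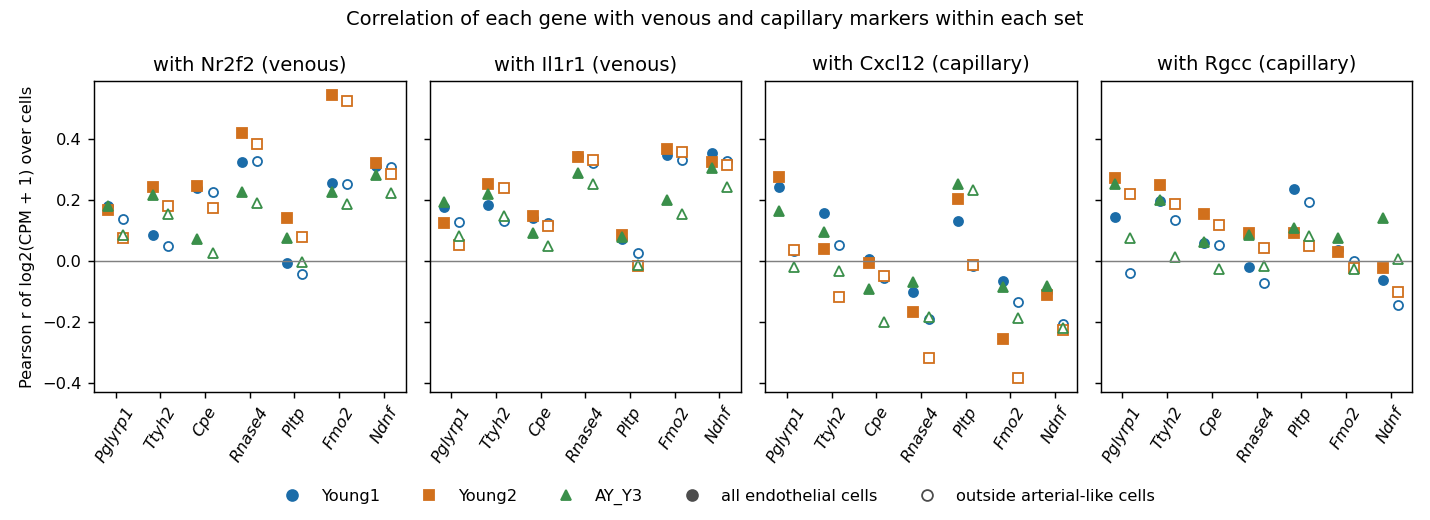
Pearson's r of log2(CPM + 1) over cells between each gene and 2 venous markers (Nr2f2, Il1r1) and 2 capillary markers (Cxcl12, Rgcc); 1 point per set, filled for all endothelial cells and open for those outside the arterial-like class. Rnase4, Fmo2 and Ndnf lie above 0 with the venous markers and below 0 with Cxcl12 in all 3 sets.

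Fmo2 and Ndnf were found more often in cells that had Rnase4. Outside the arterial-like class and with every cell thinned to 50000 counts, Fmo2 was found in 30.2%, 39.5% and 39.7% of the cells with Rnase4 in Young1, Young2 and AY_Y3, against 6.35%, 9.91% and 21.4% of cells without it. Ndnf was found in 52.8%, 51.3% and 60.3% of cells with Rnase4, against 22.2%, 17.1% and 38.1% of cells without it. Il1r1 was found in 34%, 34.2% and 36.8% of cells with Rnase4, against 7.14%, 7.21% and 14.3% of cells without it. In each set and each of these pairs, cells with Rnase4 more often had the other gene. Venous-like, capillary-like and unnamed cells were pooled here, and venous-like cells had more genes with a count in general. Pairs of other genes were not counted, and the part of the mix of classes in these shares was not tested.

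By mean r over the sets, Ttyh2 and Ndnf were the closest pair of the 7 over all endothelial cells, at r = 0.36, 0.33 and 0.43 in Young1, Young2 and AY_Y3, and 0.29, 0.24 and 0.33 outside the arterial-like class. Pglyrp1 and Pltp had r = 0.36, 0.30 and 0.37. Outside the arterial-like class that pair had a mean r of 0.08, against 0.28 for both Ttyh2 with Ndnf and Rnase4 with Fmo2. The tie between the broad genes was thus weaker without the arterial-like cells, whose low level is what they were chosen for. The ties among the sparse genes differed. The lowest r over sets went from 0.29 to 0.24 for Rnase4 with Ndnf. It went from 0.27 to 0.15 for Ttyh2 with Rnase4 and from 0.18 to 0.09 for Ttyh2 with Cpe.

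The number of the 7 genes with a count in a cell, after thinning to 50000 counts, averaged 1.69 in arterial-like cells, 5.16 in venous-like cells, 3.95 in capillary-like cells and 3.2 in unnamed cells. Arterial-like cells had at most 3 of the 7, with 55.3% holding 2 and 36.9% holding 1. At least 4 were found in 84.2% of venous-like and 62.3% of capillary-like cells. All 7 were found in 14.5% of venous-like and 2.73% of capillary-like cells. Pltp (98.7%) and Pglyrp1 (52.2%) were the genes most often found in arterial-like cells, by the mean thinned share over sets. The low number there follows from how the genes were chosen. All 7 together were most frequent in venous-like cells. However, 31.9% of all tested genes had a higher thinned share in venous-like than in capillary-like cells in every pair of sets.

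**Figure D5:**
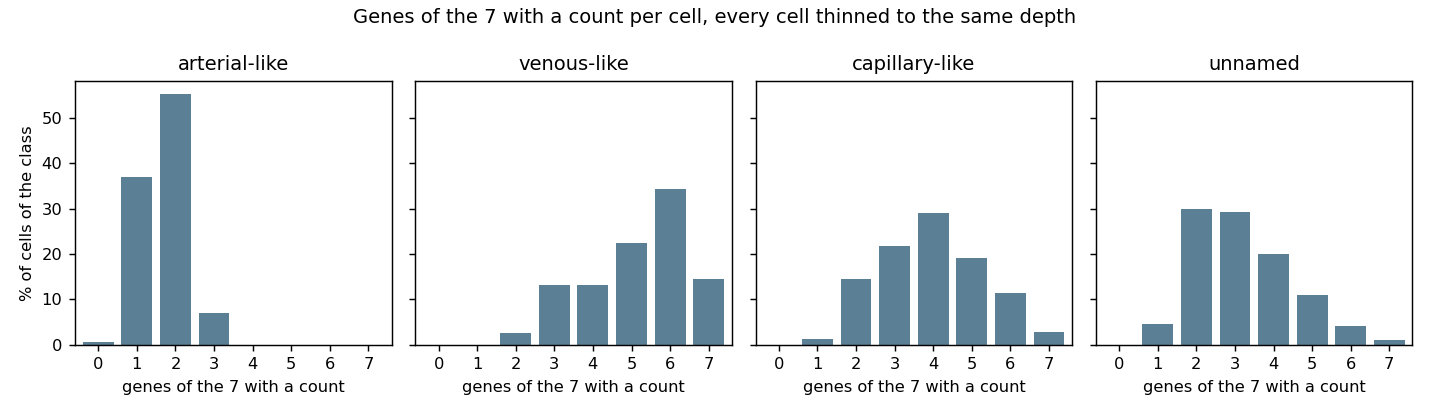
Percentage of cells of each class (linear axis from 0) by the number of the 7 genes with a count, with every cell thinned to 50000 counts and the sets pooled. Arterial-like cells peak at 2 genes (55.3%), venous-like cells at 6 (34.2%) and capillary-like cells at 4 (29.1%).

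The genes most like each of the 7 were ranked by the lowest of the 3 within-set r among 5939 genes. For Pglyrp1 these were Gatm (creatine synthesis), Bsg (basigin, a barrier glycoprotein) and Slco1a4 (an organic anion transporter), at lowest r of 0.51, 0.48 and 0.47. For Pltp they were Slco1c1 (a thyroxine transporter), Car4 (a membrane carbonic anhydrase) and Pglyrp1 itself, at 0.31, 0.30 and 0.30. Car4 was among the capillary markers used to group the cells. Ttyh2 was most like Car4, Gatm and Tmsb10 (a thymosin), at 0.47, 0.46 and 0.43. Outside the arterial-like class the genes most like Pglyrp1 were Tmsb10, Tmsb4x and Gatm, at 0.29, 0.29 and 0.25. Those most like Pltp there were Itm2a (also a capillary marker here), Cd59a and Pllp, at 0.17, 0.14 and 0.13. The genes most like these 2 thus depended on whether the arterial-like cells were counted.

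Among the genes most like Rnase4 were Slc16a1 (a lactate transporter) and Tmsb10, at a lowest r of 0.35 and 0.34. Among those most like Fmo2 were Tmsb10 and Slc38a5, at 0.27 and 0.26. Ndnf was most like Slc38a5, an amino acid transporter and a venous marker here, at 0.45, then Gm9844 and Tmsb10. Cpe had the loosest ties, led by Gm9844, Tmsb10 and Gatm at 0.25, 0.25 and 0.24. Outside the arterial-like class the gene most like Cpe was Vwf, the von Willebrand factor gene and a venous marker here, at 0.25.

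Rnase4 shares its annotated start with Ang, and the reads of these overlapping genes cannot be told apart with certainty, since the counting method is not given in the sources used here. Ang had 0, 0 and 1.9 CPM in arterial-like cells, 43.9, 84.3 and 31.6 CPM in venous-like cells and 26.02, 36.5 and 15.7 CPM in capillary-like cells of Young1, Young2 and AY_Y3, the same order as Rnase4. Of 65 endothelial cells with Ang, 46 also had Rnase4. The correlation of the 2 genes over cells was r = 0.28, 0.29 and 0.18. Pltp overlaps the cathepsin A gene Ctsa in the annotation, with the same limit.

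Relatives and partners of the 7 genes were taken from lists by protein family: volume-regulated channels, carboxypeptidases and prohormone convertases, ribonucleases, lipoprotein genes, oxidising enzymes and FGF receptor genes. Of 87 such genes 37 were tested between venous-like and capillary-like cells, and 0 passed, with 4 at an unadjusted p under 0.05. Their median log2 fold change was −0.29, against −0.04 over all tested genes. Their median thus lay on the capillary-like side, with none past the threshold.

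Low arterial-like levels were found in some partners and not in others, here for up to 3 genes per list taken by mean CPM (mean ± SD, n = 3 sets in each class). In the lipoprotein list Apoe, which encodes apolipoprotein E, averaged 429.9 ± 105.2 CPM in arterial-like cells, against 946 ± 105.6 CPM in capillary-like ones. Scarb1, the HDL receptor, averaged 209.4 ± 96.5 CPM in arterial-like cells, against 476 ± 99.9 CPM in capillary-like ones. Clu (clusterin, also apolipoprotein J) went the other way, at 1841 ± 611 CPM in arterial-like cells, against 47.5 ± 6.9 CPM in capillary-like ones, and is 1 of the 16 arterial markers that defined the class.

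In the list of oxidising enzymes Gstm1 and Gsta4, which are glutathione transferases, were lower, as Fmo2 was. Gstm1 averaged 350.5 ± 46.002 CPM in arterial-like cells, against 569 ± 95.1 CPM in capillary-like ones, and Gsta4 averaged 189.9 ± 16.3 CPM in arterial-like cells, against 496 ± 15.3 CPM in capillary-like ones. Ephx1, an epoxide hydrolase, was higher, at 417 ± 38.5 CPM in arterial-like cells, against 192.3 ± 62.6 CPM in capillary-like ones.

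Of the volume-regulated channel genes, Lrrc8a averaged 473 ± 68.1 CPM in arterial-like cells, against 484 ± 40.6 CPM in capillary-like ones, and Lrrc8c averaged 162.4 ± 23.3 CPM, against 218.7 ± 26.3 CPM. Ano6, a scramblase and channel, averaged 151.02 ± 35.7 CPM in arterial-like cells, against 88.01 ± 41.01 CPM in capillary-like ones. In the ribonuclease list Rnh1, the inhibitor of secreted ribonucleases, averaged 316 ± 85.7 CPM in arterial-like cells, against 191.2 ± 24.5 CPM in capillary-like ones, and Rnaset2b averaged 21.3 ± 1.89 CPM, against 21.7 ± 7.15 CPM.

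For the carboxypeptidase list, Pam, which amidates the peptides that Cpe has trimmed, averaged 149.1 ± 27.97 CPM in arterial-like cells, against 100.1 ± 20.8 CPM in capillary-like ones. Cpd, a carboxypeptidase of the secretory pathway, averaged 78.6 ± 45.7 CPM in arterial-like cells, against 101.4 ± 45.2 CPM in capillary-like ones, and the convertase Furin 81.02 ± 8.76 CPM, against 53.1 ± 12.6 CPM. In the list drawn up for Ndnf, the adiponectin receptor Adipor1 averaged 558 ± 31.2 CPM in arterial-like cells, against 561 ± 79.4 CPM in capillary-like ones, and Adipor2 averaged 251.6 ± 154.7 CPM, against 263.2 ± 76.5 CPM. Fgfr3, an FGF receptor, averaged 62.8 ± 7.26 CPM in arterial-like cells, against 25.3 ± 15.8 CPM in capillary-like ones. Of the antimicrobial relatives of Pglyrp1, 1 of 9 was in the table, Lyz2, at 0.026 CPM in arterial-like cells and 0 in capillary-like and venous-like cells, and the others were not analysed here.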

How the data were processed

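Whole-number read counts per gene in each cell were used as deposited by the authors, with no normalization. The submitters' processing notes list Bowtie 0.12.2, mm8 and mm10 but give no role to any of them; no counting tool, annotation or strand is given in the sources used here. Reads carry no molecular identifiers, so intervals and limits cover counting error only. The limit for a count of 0 is 3 cells of the total. The genes described, the marker and gene lists and the tests were chosen with earlier results of these data known.

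Cells with at least 500 genes and 50000 counts (52819 to 2421434 in the 745 cells) were clustered on 2000 variable genes (10 principal components, 15 neighbours, Leiden resolution 1; leidenalg 0.10.2, scikit-learn 1.9.0), and the endothelial ones again on 41 segment markers scaled within set. A marker was raised at 1.25 times its mean CPM elsewhere with a count in 25% of the cluster, and a name needed 3 raised markers. No doublet caller was run and no 2 cells had identical counts. CPM are of counts summed per set and class. Tests used edgeR 4.0.16 in R 4.3.3 (TMM, quasi-likelihood, set as block, counts summed per set and class, genes with a count in 5% of cells), checked on simulated data. The sets enter as a block because every class was cut from each set. Named genes were the 7, the 4 markers, the 3 genes most like each (1 of them is not reported here) and up to 3 genes per list by mean CPM; Tgm2, Ang and Ctsa were named after their values were seen.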

Additional observations from a re-analysis of the deposited data

Results flagged for a closer look

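The 44 cells left out as pericyte-like enter no comparison, and all 7 genes had counts there above the limit for a count of 0. Mean levels over the 3 sets were 1229.8 CPM for Pglyrp1, 295 CPM for Ttyh2, 177.9 CPM for Cpe, 197.4 CPM for Rnase4, 3052 CPM for Pltp, 71.7 CPM for Fmo2 and 210.3 CPM for Ndnf. The 10 endothelial markers summed to between 17572 and 18430 CPM in these cells, against 22594 to 24464 CPM in capillary-like cells, and the 10 pericyte markers to between 13518 and 16665 CPM, against 368 to 682 CPM. The part of these endothelial transcripts in the levels of the 7 genes there was not tested.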

How the results depend on the processing

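Between venous-like and capillary-like cells 1 gene passed (0.0108% of those tested), and 1 gene also passed with RLE size factors, without the replicate block, with classes from the marker pairs, without the cells highest in mural or in astrocyte markers, and with no filter on low counts (0.00526% of more genes tested). DESeq2 called 2.09% of the genes tested, and 0 passed at Leiden resolution 0.5, at 2, without the capillary-like cluster with most venous markers, and without Young1, Young2 or AY_Y3 (0% to 0%); the cause was not tested. The settings that leave out a capillary-like cluster, an arterial-like cluster or the cells highest in astrocyte markers were added after seeing the data. None of the 7 genes passed in any of these 14 fits, DESeq2 included. Over these fits the log2 fold change ranged from −0.09 to 1.92 for Ndnf, from 0.30 to 2.15 for Fmo2 and from 0.41 to 1.23 for Rnase4. The sign was kept in 88 of 91 alternatives over the 7 genes and turned for Ttyh2 with classes from the marker pairs (0.065), for Cpe at Leiden resolution 0.5 (−0.14) and for Ndnf when a set was left out (−0.091 without Young2, up to 0.64 without Young1).

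A comparison within arterial-like cells, of the cluster with most arterial markers raised over the rest, could be made only at Leiden resolution 2, where 10 genes passed with edgeR (0.111% of those tested), all lower. DESeq2 called 2.62%, leaving out a set gave 0% to 0.0555%, using no filter on low counts 0.0374%, leaving out the cells highest in mural markers 0.0666% and leaving out the cluster with fewest arterial markers 0.033%; the cause was not tested. Without the replicate block 9 genes passed (0.0998%), and the titles give no pairing beyond the set.

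Of 84 alternative class levels, 8 moved by more than the SD over sets, all with the clustering resolution. Pglyrp1 in arterial-like cells was 460.3 CPM at Leiden resolution 2, Ttyh2 26.5 CPM, Fmo2 1.91 CPM and Ndnf 14.4 CPM. Ndnf in capillary-like cells was 140.7 CPM at resolution 0.5 and 184.5 CPM at 2. The shares of endothelial cells with a count moved by less than that SD in 14 of 14 alternatives. Of 28 differences between the mean r with the venous and the capillary pair, 1 moved by more, that of Pglyrp1 outside the arterial-like class (0.04). The SE of the sparse genes between venous-like and capillary-like cells, 0.43 to 1.14 on the log2 scale, limits the differences that can be detected.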
